A study of Caenorhabditis elegans with 8 samples.

Results

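The genes described here encode the secreted defence proteins of the nematode Caenorhabditis elegans: lysozymes, saposin-like proteins, defensin-like and thaumatin-like proteins, small epidermal peptides and infection response genes. They were chosen by the symbols that the array's annotation gives them. These were the lys, ilys, abf, spp, thn, cnc, fipr and irg families with any number, and nlp-27 to nlp-31 with nlp-34. Of 17118 genes read by a probe set of their own, 72 matched; nlp-34 was not analysed here. They fell into 10 lys, 6 ilys, 5 abf, 18 spp, 4 thn, 8 cnc, 5 nlp, 8 fipr and 8 irg genes. A gene with several probe sets was represented by the one with the highest mean over the 8 arrays, which applied to 5 of the 72.

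Total RNA of whole worms was hybridised to Affymetrix C. elegans Genome Arrays, 4 for the strain mutant in ercc-1 and 4 for wild type N2, the laboratory strain that is also the background of the mutant. ERCC-1 belongs to a nuclease of nucleotide excision repair, the pathway that removes bulky lesions from DNA, and the labels call the mutant deficient in it without naming the allele. Both groups held animals of mixed stage and were grown for 3 to 4 days with Escherichia coli HT115(DE3) carrying pL4440 as food, and the labels name no pathogen. Nothing in the labels tells whether the arrays of a group stem from different cultures, so the spread behind each p-value may be technical.

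A worm has no mobile immune cells, and it meets bacteria and fungi at its intestine, pharynx and epidermis. Lysozymes and saposin-like proteins (caenopores) act mostly in the gut, where they digest the cell walls and pierce the membranes of bacteria. The nlp and cnc peptides are made in the epidermis and are induced by fungal infection and wounding, through the p38 kinase PMK-1 and a TGF-beta pathway. Many of these genes serve digestion and development as well as defence, and they respond to the state of the tissue that makes them.

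Of the 72 genes, 2 were called higher in the mutant and none lower, each through its own probe set. Both belong to the fipr family (fungus-induced protein related): log2 expression in the mutant was higher than in wild type by 1.75 for fipr-17 and by 1.71 for fipr-16. A second probe set, shared by fipr-16 and fip-3, differed by 0.05 and was not called. A gene was called at an adjusted p under 0.05 (limma, Benjamini-Hochberg over all 22548 probe sets), and by that rule 0.672% of all genes were called in either direction, 0.532% higher and 0.14% lower. The 2 called genes make up 2.78% of the 72. Other models on the same values called further members. A trended robust variance added spp-10 (adjusted p = 0.045 by limma). A block for the replicate number added lys-3 (adjusted p = 0.0294 by limma). Array weights gave 18 higher, fipr-16 and fipr-17 included, and spp-23 lower. Those weights, 5.05 for mutant replicate 2, also called 1155 of all 22548 probe sets higher and 268 lower. Without them 121 were called higher and 29 lower. At an unadjusted p under 0.05, 21 of the 72 genes read higher in the mutant (29.2%) and 2 lower, against 8.27% and 2.24% of all genes. In all, 51 of the 72 genes (70.8%) lay above wild type, against 59.5% of all genes, and with the arrays centred on their medians it was 41 (56.9%) against 32.7%. With that centring, the 21 became 11 (15.3%, against 3.5% of all genes). Without wild-type replicate 2 or 4 it was 12 or 11, and 16.7% and 15.3% of the genes stood against 5.91% and 6.56% of all genes.

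Over the whole array 121 probe sets were called higher and 29 lower, a split that became 75 and 41 after median centring. The mutant values lay above all wild-type values for 7 of the 72 genes (9.72%, against 5.01% of all genes), and below all of them for spp-23 (against 1.87% of all genes). The ercc-1 probe set read 9.84 ± 0.074 on mutant arrays and 9.85 ± 0.124 on wild-type arrays (SD, n = 4 each), which is no check of the labels, since the allele and the place of the probes are not known here. Below, a value is log2 expression, and a difference is the mutant mean less the wild-type mean of those values. Levels are compared between groups for the same gene and never between genes, because probe sets differ in how they bind.

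**Figure D1:**
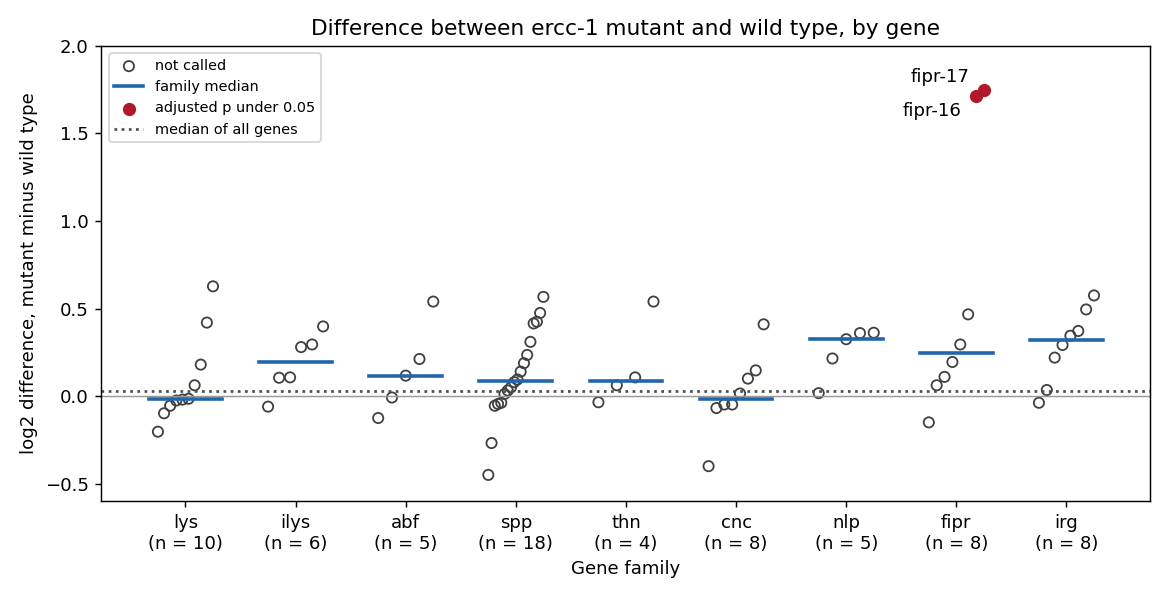
The log2 difference between mutant and wild type (vertical axis) of each of the 72 genes, by family (horizontal axis), with blue bars for family medians, a dotted line for the median of all genes and filled points for genes with an adjusted p under 0.05. The 2 filled points are fipr-17 at 1.75 and fipr-16 at 1.71, while the other 70 genes lie between -0.45 and 0.63.

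The fipr genes encode short secreted peptides related to those that fungal infection induces in the epidermis. Mutant replicates 1 to 4 read 7.58, 7.04, 7.40 and 7.48 for fipr-17, and wild-type replicates 1 to 4 read 5.41, 5.45, 5.79 and 5.85. The lowest mutant array was thus above the highest wild-type array by more than the range within either group. The wild-type arrays of fipr-17 and fipr-16 all lay below 6.42, the level under which 25% of the array's probe sets fall, and no background level is known, so their differences are not given as folds. The difference was 1.75 (SE 0.143, 95% confidence interval 1.43 to 2.07, adjusted p = 0.00104 by limma).

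For fipr-16 the mutant arrays read 7.75, 6.97, 7.29 and 7.22, and the wild-type arrays 5.92, 5.37, 5.69 and 5.40, again without overlap. The difference was 1.71 (SE 0.176, 95% confidence interval 1.32 to 2.11, adjusted p = 0.00359 by limma). Both genes had an exact two-sided permutation p of 0.0286, the smallest that 70 assignments can give. Both stayed past the threshold under each of 14 alternatives, with adjusted p (limma) from 0.0011 to 0.0253 for fipr-16 and from 0.000279 to 0.00921 for fipr-17. Both are read only through probe sets marked _x_at or _s_at, a suffix for probes that can match several transcripts, so neither was tested when those were left out. A filter on the dimmest 25% of probe sets is not counted among the 14, since both genes passed it only through their mutant values.

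The 2 genes lie on chromosome III and are not neighbours. A further probe set, which the annotation pairs with both fipr-16 and the adjacent gene fip-3, read 6.83, 6.75, 6.75 and 6.73 in the mutant and 6.79, 6.63, 6.85 and 6.58 in wild type. Its groups overlapped, and its difference was 0.05 (SE 0.079, adjusted p = 0.896 by limma). The probe set of fipr-16 alone was thus called higher, while the one shared with fip-3 showed no clear difference. Which transcripts the probe sets of fipr-16 and fipr-17 detect was not tested. The 5 measured fip genes, named as fungus-induced proteins, were looked at after these values were seen. None was called, and their differences ran from -0.15 for fip-4 to 0.33 for fip-2. For fip-3 the mutant arrays read 6.63 to 6.71 and the wild-type arrays 6.08 to 6.55 (0.305, adjusted p = 0.33 by limma). The groups of fip-2 did not overlap either, and those of fip-1, fip-4 and fip-5 did. Over all genes, 5.01% lay higher in the mutant without overlap.

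The other 6 fipr genes did not pass the test. Mutant replicate 1 read 6.96 for fipr-24, above every other array, and mutant replicate 3 (6.41) lay inside the wild-type range of 6.23 to 6.47, for a difference of 0.29 (adjusted p = 0.451 by limma). The values for fipr-2, fipr-25 and fipr-26 were 0.47, 0.20 and 0.11, and fipr-2 spread from 7.19 to 8.45 within wild type alone. The gene fipr-21 read 0.06, and -0.03 after median centring or without mutant replicate 1. A single member of the family, fipr-14, read below wild type (-0.15, adjusted p = 0.522 by limma). The family median was 0.24, against 0.03 over all genes.

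**Figure D2:**
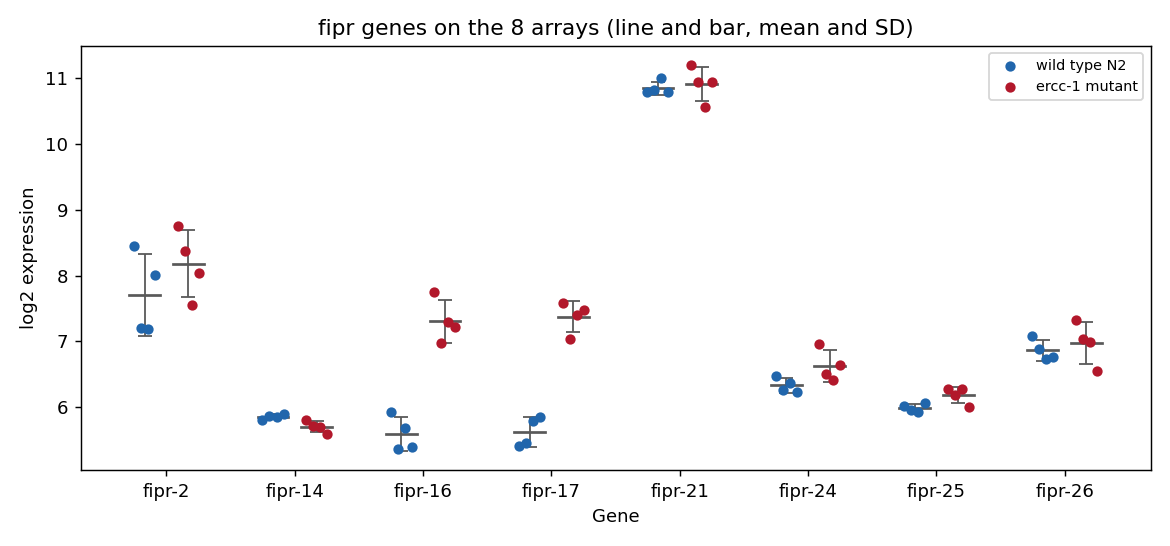
Log2 expression (vertical axis) of the 8 fipr genes on each array, wild type in blue and mutant in red, with points from left to right for replicates 1 to 4 and lines and bars for mean and SD (n = 4). The mutant and wild-type points are separated for fipr-16 and fipr-17, where all mutant arrays read 6.97 or more and all wild-type arrays 5.92 or less, and they overlap for the other 6 genes.

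Saposin-like proteins were the largest family, with 18 genes and none called. With 13 genes above wild type and 5 below, 72.2% lay above, against 59.5% of all genes. Their median was 0.09. It was -0.003 after median centring and 0.197 without mutant replicate 4. At an unadjusted p under 0.05, 5 were higher (27.8%, against 8.27% of all genes). Among them spp-10, which encodes a prosaposin-like protein, was read by 3 probe sets. The main one read 12.06, 12.04, 11.90 and 11.84 in the mutant and 11.68, 11.70, 11.63 and 11.59 in wild type. Its difference was 0.31 (SE 0.074, adjusted p = 0.141 by limma, exact permutation p = 0.0286). The other probe sets of spp-10 read 0.32 and 0.26 (adjusted p = 0.172 and 0.165 by limma), and the groups did not overlap on any of the 3.

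Its near neighbour on chromosome IV, spp-8, read 10.33, 9.62, 9.91 and 9.45 in the mutant and 9.50, 9.11, 9.22 and 9.21 in wild type. The lowest mutant array overlapped the highest wild-type array. The difference was 0.57 (SE 0.177, adjusted p = 0.284 by limma), and 0.69 on the second spp-8 probe set, where the groups did not overlap (adjusted p = 0.164 by limma).

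The remaining higher readings in the family were those of spp-18, spp-27 and spp-31. For spp-18 the mutant arrays read 11.11, 10.93, 10.76 and 11.00, and the wild-type arrays 10.48, 10.54, 10.77 and 10.35 (difference 0.41, adjusted p = 0.178 by limma). The groups of spp-27 did not overlap, at 8.0 to 8.69 in the mutant and 7.62 to 7.99 in wild type (0.47, adjusted p = 0.292 by limma). The mutant arrays of spp-31 read 7.81 to 8.57 and the wild-type arrays 7.58 to 7.76 (0.42, adjusted p = 0.349 by limma). In both of these genes the highest value was that of mutant replicate 1.

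The member with the smallest p outside the fipr family was spp-23, and it was lower in the mutant. It read 9.83, 9.98, 9.94 and 9.68 in the mutant and 10.21, 10.30, 10.51 and 10.21 in wild type. Every mutant array lay below every wild-type array, and the difference was -0.45 (SE 0.097, 95% confidence interval -0.67 to -0.23). The adjusted p of 0.0979 (limma) did not pass. Another low reading, -0.27 for spp-13, came from mutant replicates 3 and 4 (6.93 and 6.66), while replicates 1 and 2 (7.97 and 7.78) lay above all wild-type arrays (7.53 to 7.72).

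Well-known gut caenopores and the other saposin-like genes differed little. For spp-1, active against bacteria in the intestine, the arrays read 10.48 to 11.12 in the mutant and 10.68 to 10.97 in wild type (difference 0.08), and a second spp-1 probe set read -0.09. The difference was 0.14 for spp-14 (adjusted p = 0.591 by limma), 0.24 for spp-15 and 0.19 for spp-6. It ran from -0.06 for spp-19 to 0.10 for spp-24 over spp-4, spp-7, spp-11, spp-12, spp-16, spp-19 and spp-24.

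**Figure D3:**
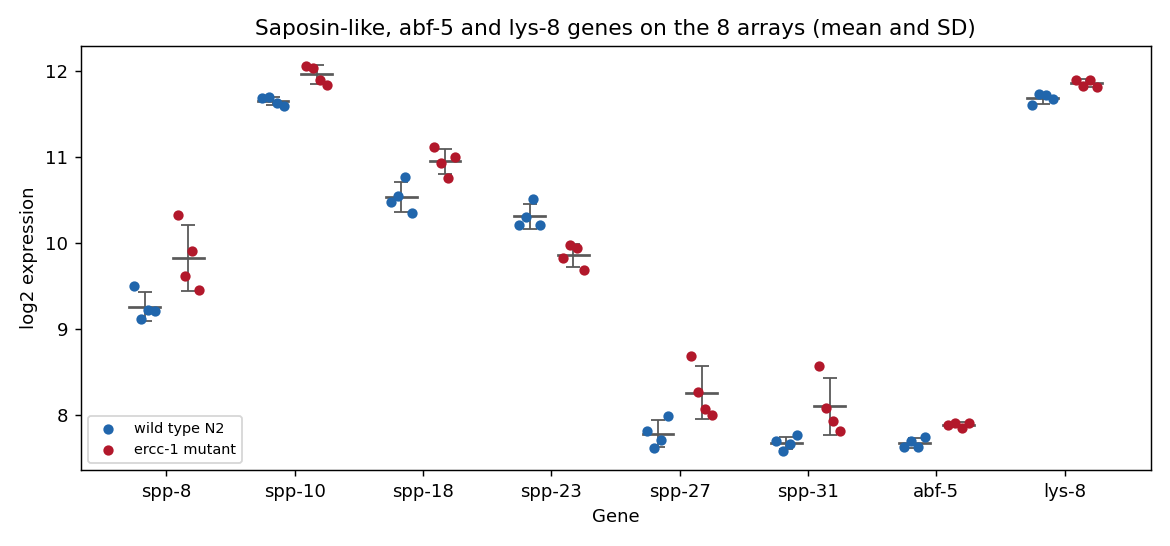
Log2 expression (vertical axis) of 6 saposin-like genes, abf-5 and lys-8 on each array, wild type in blue and mutant in red, points from left to right for replicates 1 to 4, lines and bars for mean and SD (n = 4). Mutant points lie below wild type for spp-23 and above it without overlap for spp-10, spp-27, spp-31, abf-5 and lys-8, and none of these genes passed the adjusted threshold.

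Lysozymes cleave the peptidoglycan of bacterial cell walls. None of the 10 lys genes and none of the 6 ilys genes was called. The lys median was -0.02, with 4 genes above wild type (40%, against 59.5% of all genes) and 6 below. For lys-7, which responds to bacterial infection and to insulin-like signalling through DAF-16, the mutant arrays read 11.77, 11.78, 10.93 and 11.20, and the wild-type arrays 10.91, 10.91, 11.05 and 11.13. Mutant replicates 1, 2 and 4 stood above wild type while replicate 3 lay within its range (difference 0.42, SE 0.184, adjusted p = 0.50 by limma). A narrow but separate difference was seen for lys-8, at 11.81 to 11.90 in the mutant and 11.60 to 11.73 in wild type (0.18, SE 0.065, adjusted p = 0.374 by limma).

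The genes lys-1, lys-2 and lys-3 follow each other on chromosome V and did not read alike. The values of lys-1 and lys-2 were -0.02 and -0.10 (adjusted p = 0.97 and 0.807 by limma). For lys-3 the mutant arrays read 8.07, 7.41, 7.28 and 7.09 and the wild-type arrays 7.40, 6.84, 6.72 and 6.38. The groups of lys-3 overlapped, and the difference of 0.63 (SE 0.247, adjusted p = 0.427 by limma) was the third largest among the 72 genes. On chromosome IV lie lys-4, lys-5 and lys-6 in a row, at -0.20, 0.06 and -0.01. The lower value of lys-4 came from arrays at 11.68 to 11.88 in the mutant and 11.86 to 12.13 in wild type (adjusted p = 0.459 by limma). The last members, lys-9 and lys-10, read -0.03 and -0.06.

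The invertebrate-type lysozymes had a median of 0.19, and 5 of 6 were above wild type (83.3%, against 59.5% of all genes). Mutant arrays read 8.91, 8.34, 8.48 and 8.07 for ilys-3, which breaks down bacteria in the pharynx and gut, and wild-type arrays 8.19, 7.85, 8.11 and 8.06. The difference was 0.40 (SE 0.162, adjusted p = 0.451 by limma), with mutant replicate 4 inside the wild-type range. Next to it on chromosome IV, ilys-2 and ilys-1 read 0.28 (adjusted p = 0.361 by limma) and -0.06. The 3 probe sets of ilys-5 read 0.11, 0.14 and 0.17, and ilys-4 and ilys-6 read 0.29 and 0.10.

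Among the defensin-like abf genes (antibacterial factors), abf-2, a pharyngeal peptide, varied most. Its mutant arrays read 7.93, 7.35, 7.62 and 6.52, and its wild-type arrays 6.96, 6.75, 6.94 and 6.61. Mutant replicates 1 to 3 were above wild type, and replicate 4 was below every other array. The difference was 0.54 (SE 0.257, adjusted p = 0.541 by limma), and it passed at 0.82 when mutant replicate 4 was left out (adjusted p = 0.0373 by limma). The neighbouring abf-1 read 0.12.

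The arrays of abf-5 lay close together, at 7.88, 7.91, 7.85 and 7.90 in the mutant and 7.63, 7.69, 7.63 and 7.74 in wild type. The groups did not overlap, and the difference of 0.21 (SE 0.062, adjusted p = 0.243 by limma) did not pass. The values of abf-3 and abf-4 were -0.01 and -0.12, both with means over all arrays below 6.42. Of the 72 genes 17 were as dim as that, against 24.9% of all genes.

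Of the thaumatin-like genes, named after a plant defence protein, thn-1 read 8.04, 7.55, 7.23 and 6.75 in the mutant and 7.02, 6.88, 6.78 and 6.73 in wild type. Mutant replicates 1 to 3 were above wild type and replicate 4 within it (difference 0.54, SE 0.23, adjusted p = 0.477 by limma). The differences of thn-3, thn-4 and thn-6 were -0.04, 0.11 and 0.06. The value of thn-6 turned to -0.03 after median centring, and the family median of 0.09 to -0.01.

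The epidermal nlp peptides lie side by side on chromosome V, in the order nlp-31, nlp-30, nlp-29, nlp-28 and nlp-27. All 5 were read by _x_at probe sets and none was called. All 5 differences were above 0 (100%, against 59.5% of all genes), with a median of 0.33. Leaving out mutant replicate 1 brought the median to 0.177, and leaving out replicate 4 brought it to 0.465. The best studied, nlp-29, induced in the epidermis by fungal infection and by wounds, read 10.20, 9.91, 9.65 and 9.24 in the mutant and 9.47, 9.45, 9.53 and 9.11 in wild type. Replicates 1 to 3 of the mutant were above wild type and replicate 4 was inside its range (difference 0.36, SE 0.188, adjusted p = 0.588 by limma).

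The values of nlp-31 were 10.03, 9.70, 9.49 and 9.33 in the mutant and 9.43, 9.33, 9.36 and 8.98 in wild type (0.36, adjusted p = 0.486 by limma). Those of nlp-28 and nlp-30 differed by 0.33 and 0.21 (adjusted p = 0.642 and 0.616 by limma). The gene at the end of the row, nlp-27, read 9.06 to 9.21 in the mutant and 8.96 to 9.37 in wild type, a difference of 0.02. The SD among mutant arrays was 0.076 for nlp-27 and 0.217 to 0.408 for the other 4 genes of the row.

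A second row on chromosome V holds the caenacins cnc-1, cnc-5, cnc-4, cnc-3 and cnc-2, epidermal peptides controlled by the TGF-beta ligand DBL-1. Their differences were 0.15, 0.01, 0.41, -0.05 and -0.05, none called. For cnc-4 the mutant arrays read 9.70, 9.27, 8.74 and 8.80 and the wild-type arrays 8.92, 8.93, 8.66 and 8.36 (adjusted p = 0.59 by limma). Values of cnc-2, a target of DBL-1, were 7.77 to 8.14 in the mutant and 7.76 to 8.14 in wild type. The caenacin with the lowest difference was cnc-7, at 8.0, 8.16, 7.93 and 7.08 in the mutant and 7.91, 8.29, 8.55 and 8.02 in wild type (-0.40, adjusted p = 0.64 by limma). Its second probe set read -0.42. The differences of cnc-6 and cnc-8 were 0.10 and -0.07, and the median of the 8 cnc genes was -0.02.

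The irg genes were named for their response to infection, and several depend on PMK-1 or on the transcription factor ZIP-2. None of the 8 was called, and 7 were above wild type (87.5%, against 59.5% of all genes). At an unadjusted p under 0.05, 4 were higher (50%, against 8.27% of all genes). The median was 0.32, against 0.03 over all genes. It was 0.229 after median centring and 0.194 without mutant replicates 1 and 4. For irg-5, a PMK-1-dependent gene of the intestine, the mutant arrays read 8.23, 7.92, 7.48 and 8.37 and the wild-type arrays 7.38, 7.43, 7.52 and 7.37. Mutant replicates 1, 2 and 4 were above wild type and replicate 3 was not (difference 0.57, SE 0.17, adjusted p = 0.251 by limma). Without mutant replicate 3 it passed (0.75, adjusted p = 0.0418 by limma).

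The same mutant array was lowest for irg-8, which read 11.40, 11.71, 10.98 and 11.89 in the mutant and 10.82, 11.18, 11.10 and 10.90 in wild type (0.49, adjusted p = 0.388 by limma). The values of irg-3 were 8.78, 8.87, 8.34 and 8.90 in the mutant and 8.23 to 8.50 in wild type (0.34, adjusted p = 0.394 by limma), and those of irg-2 were 8.22 to 8.86 and 8.0 to 8.36 (0.37, adjusted p = 0.387 by limma). Thus replicate 3 of the mutant stood inside the wild-type range for irg-3, irg-5 and irg-8, and replicate 4 did so for irg-2. The best known gene of the group, irg-1, a target of ZIP-2 that responds to blocked translation, differed by 0.22 (adjusted p = 0.574 by limma). The differences of irg-7, irg-6 and irg-4 were 0.29, 0.03 and -0.04.

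**Figure D4:**
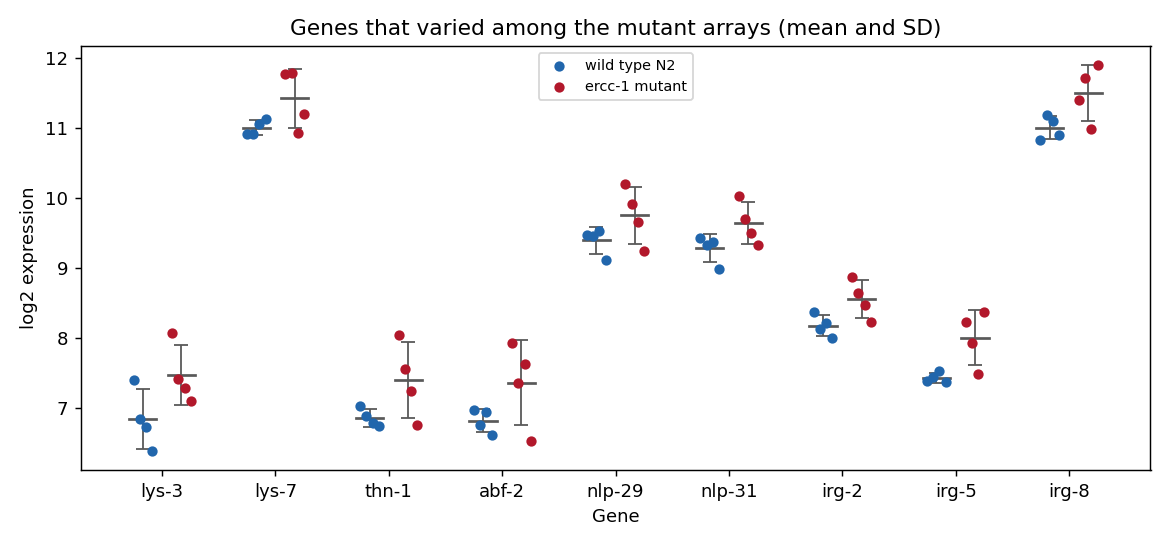
Log2 expression (vertical axis) of 9 genes of the lys, thn, abf, nlp and irg families on each array, wild type in blue and mutant in red, points from left to right for replicates 1 to 4, lines and bars for mean and SD (n = 4). In the mutant, replicate 1 is highest and replicate 4 lowest for lys-3, thn-1, abf-2, nlp-29, nlp-31 and irg-2, and replicate 3 is lowest for lys-7, irg-5 and irg-8.

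The 72 genes varied more among the mutant arrays than among the wild-type arrays. The median SD of a gene was 0.22 in the mutant and 0.142 in wild type, against 0.151 and 0.111 over all genes (n = 4 arrays each). Mutant replicate 1 was the highest mutant array for 41 of the 72 genes (56.9%, against 32.6% of all genes), and mutant replicate 4 was the lowest for 35 (48.6%, against 25.6%). Both held for 25 of the 72 genes, 9 of them spp genes, against 14.7% of all genes. The median over the 72 genes, relative to each gene's wild-type mean, stood at 0.27, 0.18, 0.06 and 0.08 for mutant replicates 1 to 4. It stood at -0.02, -0.03, 0.09 and -0.06 for the wild-type arrays. The arrays as a whole also differed: their medians over all probe sets were 7.59, 7.52, 7.44 and 7.50 for mutant replicates 1 to 4 and 7.39 to 7.44 for wild type. With each array centred on that median, the 72 genes stood at 0.10, 0.08, 0.04 and -0.001 in the mutant and from -0.06 to 0.07 in wild type, and all genes at -0.13, -0.06, -0.02 and -0.04 in the mutant. On either scale mutant replicates 1 and 2 stood above all wild-type arrays, and replicates 3 and 4 did not.

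Families differed in which mutant array was high, on values not centred on the array medians. Over the wild-type arrays the family medians ran from -0.27 to 0.19 for nlp and from -0.072 to 0.077 for irg genes. They ran from -0.055 to 0.062 for lys and from -0.127 to 0.093 for cnc genes. The nlp genes had a median of 0.76 on mutant replicate 1, 0.43 on replicate 2, 0.21 on replicate 3 and 0.06 on replicate 4. The irg genes were at 0.43 and 0.44 on replicates 1 and 2, -0.03 on replicate 3 and 0.23 on replicate 4. The lys genes read 0.15 on replicate 4 and -0.17 on replicate 3, and the cnc genes read -0.19 on replicate 4. These are descriptions of 4 mutant samples, and the genes of a family share tissues and probes. Fewer cells of a tissue and less RNA per cell cannot be told apart in RNA of whole worms.

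**Figure D5:**
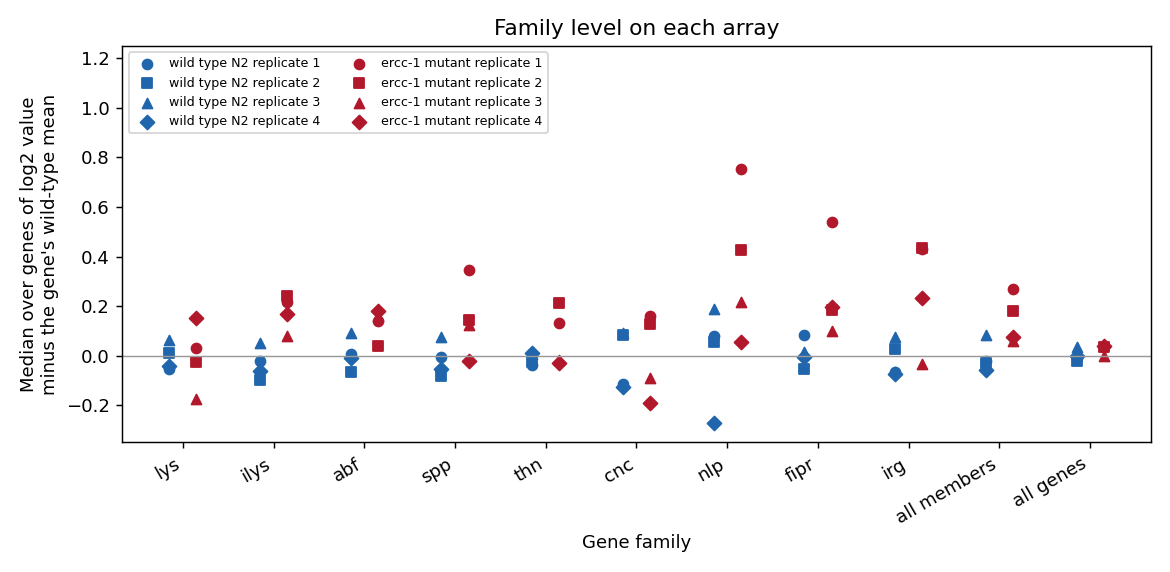
The median over each family's genes of the log2 value minus the gene's wild-type mean (vertical axis), for each of the 8 arrays, by family (horizontal axis), with 1 symbol per replicate number. Mutant replicate 1 (red circles) reaches 0.76 for nlp and 0.54 for fipr genes, while the 4 mutant arrays lie between 0.00 and 0.04 over all genes. The values are as deposited and not centred on the array medians, which run from 7.39 to 7.59.

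Markers of the tissues that make these proteins moved in part with the same array. Mutant replicate 1 was the highest mutant array for 14 of 15 intestine markers, 9 of 13 epidermis markers and 10 of 16 pharynx markers. The same held for 9 of 10 body wall muscle markers and 8 of 10 neuron markers, and for 1 of 10 germline markers. Over all genes the share was 32.6%. The mean level of the intestine list ran from 10.91 to 11.61 over the mutant arrays and from 11.13 to 11.22 over the wild-type arrays. Its low end, on mutant replicate 4, held a low value of mtl-1, which read 6.46 there and 10.93 on mutant replicate 1. The median of the list on mutant replicate 4, relative to each gene's wild-type mean, was -0.007. The mean level ran from 9.13 to 9.71 and from 9.34 to 9.40 for the epidermis list, and from 7.65 to 8.05 and from 7.43 to 7.69 for the pharynx list. The defining markers elt-2 (intestine), dpy-7 (epidermis) and myo-2 (pharynx) were all read, and none of the markers of the 3 tissues was called. Their differences mostly lay above 0, for 80% of intestine, 69.2% of epidermis and 100% of pharynx markers, against 59.5% of all genes. The values are as deposited and not centred. Array medians ran from 7.44 to 7.59 in the mutant and from 7.39 to 7.44 in wild type. All 16 pharynx markers were above wild type (median 0.27). At an unadjusted p under 0.05, 5 of them were higher (31.2%, against 8.27% of all genes). The groups did not overlap for 4 (25%, against 5.01% of all genes). Above wild type were also 10 of 10 body wall muscle markers (median 0.15), 9 of 10 neuron markers (0.20), 12 of 15 intestine markers (0.07) and 9 of 13 epidermis markers (0.09), but 2 of 10 germline markers (-0.05). The part of tissue content in the differences above was not tested.

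Sperm genes read higher in the mutant, with 18 of 23 major sperm protein (msp) genes called (78.3%, against 0.532% of all genes called higher). Their median difference was 1.07, and their mean level was 11.58 to 12.43 in the mutant against 10.61 to 10.86 in wild type. All 23 were read by _x_at probe sets, whose probes can match several transcripts, so they may not be separate readings. Leaving out any 1 wild-type replicate left 0 of the 23 called, and 5 were called without mutant replicate 2, while the median stayed between 0.867 and 1.131 whichever array was left out. Their highest array was mutant replicate 4. On mutant replicates 1 and 4, fipr-16 read 7.75 and 7.22, and fipr-17 read 7.58 and 7.48. Of 8 male markers, 7 were above wild type (87.5%, against 59.5% of all genes) and 1 was called (12.5%, against 0.672% of all genes). This was cwp-2 (0.675, adjusted p = 0.029 by limma), which read below 6.42 on every array. After median centring 0 of the male markers were called higher. Whether sperm content or males have a part in the differences of fipr-16 and fipr-17 was not tested.

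Genes upstream of the defence proteins were examined in a list of 54 signalling genes, 51 of them measured, that held the p38, DBL-1 and related pathways and their transcription factors. None was called, and 37 were above wild type (72.5%, against 59.5% of all genes). The median was 0.09, against 0.03 over all genes, on values not centred on the array medians. At an unadjusted p under 0.05, 7 were higher (13.7%, against 8.27% of all genes) and none lower. These were sma-4, bar-1, zip-2, vhp-1, which encodes a MAP kinase phosphatase, nipi-3, which encodes a kinase-like protein needed for nlp-29 induction, dcar-1, a receptor in the same epidermal pathway, and tir-1, an adaptor above the p38 cascade. The signalling genes named here were chosen after their values were seen. Near 0 lay pmk-1 (-0.05), its relative pmk-2 (0.002), atf-7 (-0.003), a transcription factor below PMK-1, and snf-12 (-0.10), needed for nlp-29 induction. The smallest p was that of sma-4, the co-Smad of the DBL-1 pathway, at 8.61, 8.52, 8.57 and 8.41 in the mutant and 8.20, 8.23, 8.06 and 8.18 in wild type (0.36, SE 0.073, adjusted p = 0.0811 by limma).

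For nipi-3, dcar-1 and tir-1 the differences were 0.37, 0.44 and 0.50 (adjusted p = 0.461, 0.389 and 0.503 by limma), and for vhp-1 and bar-1 they were 0.50 and 0.25 (adjusted p = 0.47 and 0.363 by limma). The factor zip-2, which drives irg-1, read 11.51, 11.10, 10.58 and 10.83 in the mutant and 10.66, 10.60, 10.26 and 10.47 in wild type (0.51, adjusted p = 0.374 by limma). In nipi-3, dcar-1, tir-1 and zip-2 mutant replicate 1 was the highest of the 8 arrays, as it was for nlp-29, nlp-31 and lys-3. It was the highest mutant array for 36 of the 51 signalling genes (70.6%), against 32.6% of all genes. Its median over all probe sets, 7.59, was also the highest of the 8 arrays.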

How the data were processed

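Per the submitters' processing notes the authors made the deposited table, 1 log2 value for each probe set on each array, with Affymetrix Expression Console 1.1. The scale was taken as log2 because the values lie between 0 and 14.38; its base and the summarisation and normalization methods were not given in the sources used here. Detection calls were not used. Of 22548 probe sets, the platform annotation paired 20766 with 1 gene, 887 with several and 895 with none; 14 probe sets of matching genes were left out because they were paired with several. A RefSeq gene table (assembly WBcel235), which held all 72 genes, gave chromosomes and neighbours.

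Differences were fitted on all probe sets in R 4.3.3 with the package limma 3.58.1 (lmFit, then eBayes, two-sided, Benjamini-Hochberg adjustment, n = 4 per group, which limits the precision) and the code was tested on simulated data. The exact permutation test enumerated 70 assignments. The members and lists were chosen with earlier results of these data known. The text names called genes, the 3 smallest p per family, the extremes and highest level of each family, well-known members and genes whose groups did not overlap. Alternatives were other scalings, filters, variance models, array weights, a block for the replicate number and leaving out arrays.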

Additional observations from a re-analysis of the deposited data

Results flagged for a closer look

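In 1 of 90 groups of 4 values, over the 45 genes named by rule, a single array stood far from the others, against a chance rate of about 1 in 20 groups. Wild-type replicate 3 read 11.0 for fipr-21, while the other wild-type arrays read 10.79 to 10.82.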

How the results depend on the processing

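The higher readings of fipr-16 and fipr-17 kept their direction and their side of the threshold under all 14 alternatives that tested them. The filter on dim probe sets is not counted, since both genes passed it only through their mutant values. Without _x_at and _s_at probe sets, where neither was tested, 0 members were called higher. With array weights, where 1 mutant array carries a weight of 5.05 and the others 0.62 or less, 18 members were called higher and 1, spp-23, lower, while an adjusted p under 0.1 also added 1 lower. Other members passed once each outside the weights: abf-2 without mutant replicate 4, irg-5 without mutant replicate 3, and spp-10 with a trended robust variance (adjusted p = 0.045). Same-numbered arrays of the 2 groups had deviations correlated at 0.473, 0.014, 0.04 and 0.201 for replicates 1 to 4. Differently numbered arrays were correlated at -0.389 to 0.252, so the value for replicate 1 was the highest. The main fit did not take the numbers as pairs. With the replicate number as a block lys-3 passed as well (adjusted p = 0.0294 by limma), and 13 probe sets were called lower. Over all probe sets, 75 were called higher after median centring, 206 at an adjusted p under 0.1, 39 higher and 7 lower without _x_at and _s_at probe sets, 1155 higher and 268 lower with array weights, and 16 lower without mutant replicates 1 and 4. Leaving out 1 array gave 26 to 231 higher and 3 to 37 lower over all probe sets, and 2 to 3 higher members. The count of members higher at an unadjusted p under 0.05, examined after seeing the data, was 11 after median centring, 36 with array weights and 11 to 25 without 1 array, and 32 of the 47 members tested without _x_at and _s_at probe sets lay above wild type.

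The median was 0.104 for ilys, 0.028 for abf, -0.005 for thn, -0.003 for spp genes and 0.019 for all members after median centring. Leaving out 1 array gave medians of -0.044 to 0.048 for lys, 0.07 to 0.147 for abf, 0.063 to 0.197 for spp, 0.042 to 0.137 for thn, -0.086 to 0.116 for cnc, 0.177 to 0.465 for nlp genes and 0.105 to 0.19 for all members. It was 0.045 for abf genes after quantile normalization and 0.035 without mutant replicates 1 and 4. Without the dimmest 25% of probe sets it was 0.287 for ilys, 0.212 for abf and 0.215 for all members, and 0.287 for ilys genes without _x_at and _s_at probe sets. Among 704 alternative values of the 45 named genes, 26 had the opposite sign, all in genes that were not called. With array weights these were cnc-2 (0.125), cnc-8 (0.024), irg-4 (0.127) and thn-3 (0.083). After median centring they were fipr-21 (-0.028), spp-1 (-0.01) and thn-6 (-0.028, and -0.011 after quantile normalization). The second and dimmer spp-1 probe set, also the one left without _x_at and _s_at probe sets, read -0.09. The value of fipr-21 was -0.093 without mutant replicates 1 and 4. Leaving out 1 array gave -0.12 to 0.009 for cnc-2, -0.138 to 0.023 for cnc-8, -0.033 to 0.177 for fipr-21, -0.149 to 0.041 for ilys-1, -0.203 to 0.073 for irg-4, -0.052 to 0.038 for lys-1, -0.003 to 0.211 for spp-1 and -0.103 to 0.03 for thn-3. The cause of these shifts was not tested. With 4 arrays per group and no background level, small differences of dim genes are beyond these data.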
